A study of Drosophila melanogaster with 30 samples.

Results

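The data describe the binding of CrebB at 9 genes in the mushroom bodies (MBs), the insect brain centre for olfactory memory, measured by Targeted DamID (TaDa) in Drosophila melanogaster. The genes are Bruce, Ncoa6, nocte, slp1, Sry-delta, vimar, C3G, Bicra (listed by the study as CG11873) and Nuak (CG43143), 9 of 17480 genes with a measured value. The screen list in the study's text prints CG43134, another gene, so the place of Nuak in that screen is uncertain. They were chosen by the study from its candidates for the first time interval after training (TI-1) and taken into a memory screen. That choice used the TI-1 contrast of paired with unpaired flies, it left out transcripts enriched in naive flies, and it kept genes present in a published CREB binding dataset. The TI-1 and naive values below are therefore a description with no test. Tests were made only on the second interval (TI-2), whose profiles did not enter the choice as the study describes it. The naive and TI-2 profiles resemble each other, so a TI-2 level is not free of the choice made on naive enrichment.

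The 30 samples form 15 profiles, each a Dam::CrebB library set against a Dam-only library, with 3 replicates in each of 5 groups: naive flies, unpaired and paired flies at TI-1, and unpaired and paired flies at TI-2. All flies were adults carrying mb247-Gal4, a driver active in MB neurons, the temperature-sensitive repressor tubGal80ts, and either UAS-Dam-CrebB or UAS-Dam. Starved flies were trained: in paired flies an odor came together with sucrose, in unpaired flies odor and sucrose were separated in time, and naive flies were not trained. Expression was switched on from -3 h to 24 h around training for TI-1 and from 24 h to 48 h for TI-2, and pooled whole heads were collected. The labels give no interval for the naive flies.

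CrebB is the fly CREB protein, a bZIP transcription factor that binds cAMP response elements and is required for long-term memory. In TaDa the Dam methylase, fused to CrebB, marks GATC sites close to where the fusion protein sits, and Dam alone reports how accessible the chromatin is. The value deposited for each GATC fragment is a log2 ratio, Dam::CrebB against Dam-only, so that 0 stands for equal methylation and a negative value for less methylation by the fusion than by Dam alone. It measures occupancy and not transcription. A gene value is the mean of this ratio over all fragments in contact with the gene body, with longer fragments counting more in proportion to their length. The profiles hold ratios and no read counts, and the depth behind each ratio is unknown.

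The whole series sets the scale for these values. The mean over all fragments lay between 0.033 and 0.19 in 14 profiles and at 0.50 in paired TI-1 replicate 3, which correlated with the naive profiles at r between -0.063 and 0.00026. Paired TI-2 replicate 3 was, among the other profiles, the closest to it, with r = 0.60. Each ratio averages all cells in which the driver was active, so the share of cells bound and the binding per cell cannot be told apart. Of 14 MB marker genes, 4 lay above 0.2 in all 3 naive profiles and 2 were called above 0 at TI-2 (all genes 22.7% and 10.5%), among them toy, a Pax6 gene of the MBs, at 0.46. For 8 glial markers these counts were 5 and 2, and for 8 markers of muscle, fat body and eye 0 and 0, with 1 called below 0.

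The 9 genes fell into 3 sets by their naive level. Bicra and C3G were occupied above Dam-only, Nuak, nocte, vimar and Ncoa6 lay near 0, and Bruce, Sry-delta and slp1 lay well below 0. All 3 naive profiles were above 0.2 for 2 of the 9 genes, against 22.7% of all genes, and all 3 were below -0.2 for 3 of the 9, against 9.89% of all genes. Neighbours in the order did not always separate: the naive ranges of Bicra and C3G overlapped, as did those of Nuak and nocte, of Bruce and Sry-delta, and of Sry-delta and slp1. At TI-2 all 8 neighbouring pairs overlapped. The genes lie on 2L, 2R, 3R and X, and Nuak and Bruce are 3571 bp apart on 3R, with part of CG6293 between them.

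**Figure D1:**
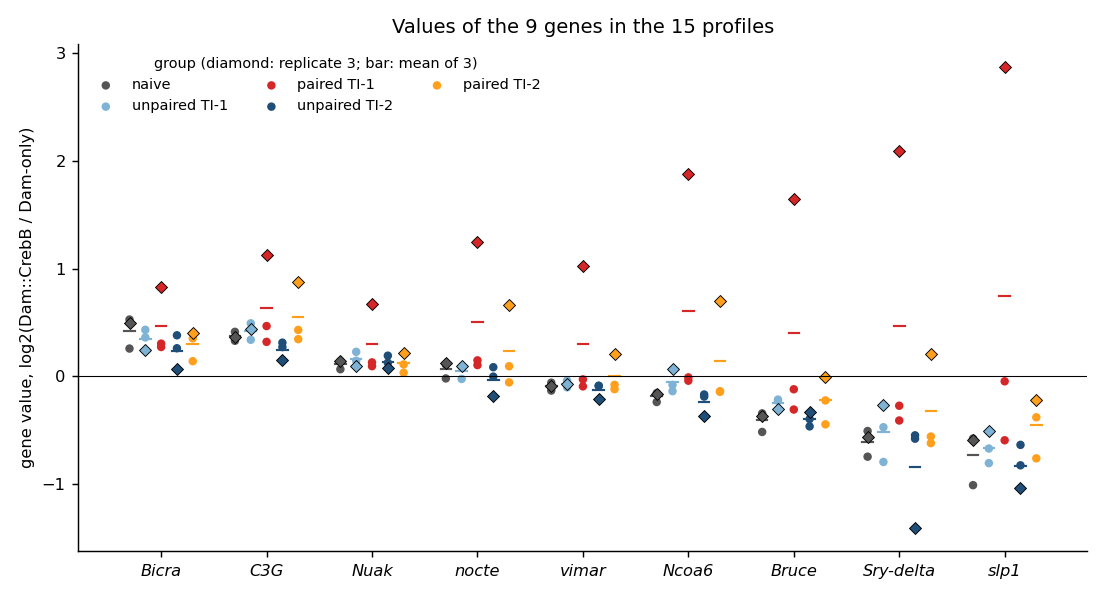
Gene values (log2 of Dam::CrebB over Dam-only, vertical axis) of the 9 genes in every profile, ordered by naive mean. Points are single profiles, diamonds are replicate 3 and bars are means of 3. Paired TI-1 replicate 3 is the highest of the 15 profiles for each gene, from 0.68 in Nuak to 2.87 in slp1, and 14 profiles of slp1 lie below 0.

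Sloppy paired 1 (slp1) is a forkhead transcription factor that patterns embryonic segments and takes part in the temporal series of optic lobe neuroblasts. The gene spans chr2L:3825675-3827099 in release 6 and holds 7 GATC fragments. Its naive values were -0.58, -1.01 and -0.60, and 0.635%, 0.297% and 1.58% of all genes had a lower value in these profiles. At TI-1 the unpaired values were -0.67, -0.81 and -0.51 and the paired values -0.59, -0.047 and 2.87. A single profile was thus above 0, and paired replicate 2 was close to 0. The TI-2 values were -0.64, -0.83 and -1.04 in unpaired and -0.38, -0.76 and -0.22 in paired flies, so that all 6 were below 0. The level over both TI-2 groups was -0.64 ± 0.089 (SE, n = 6, limma adjusted p = 0.00656), the only level among the 9 genes past the threshold of adjusted p under 0.01 and 0.2 in size. The same rule called 3.07% of all genes below 0 and 10.5% above 0.

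The depletion of slp1 was deepest in the middle of the gene and extended to its high-coordinate end. The 426 bp fragment chr2L:3826366-3826792 was the lowest in naive flies, at -1.38, -2.31 and -1.49. Read at TI-2, it gave -1.33, -2.13 and -2.41 in unpaired and -0.74, -1.93 and -0.39 in paired flies (mean -1.49, adjusted p = 0.0304). The next fragment, chr2L:3826792-3827198, had the smaller mean of -0.80 but the smaller error, and it passed the threshold at TI-2 with adjusted p = 0.00999. In paired TI-1 replicate 3 the lowest naive fragment reached 5.29, the highest value of any fragment in the gene. With the gene cut into 3 parts of equal length (low, middle and high coordinates), the low part stayed between -0.11 and 0.11 at TI-2.

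Sry-delta encodes a zinc finger protein of the serendipity cluster that regulates bicoid in the female germ line. It occupies chr3R:30043341-30044886 with 6 fragments, between Sry-alpha and RpL32. Naive values were -0.51, -0.75 and -0.57. At TI-1 they were -0.80, -0.47 and -0.27 in unpaired and -0.41, -0.27 and 2.09 in paired flies, and at TI-2 -0.55, -0.58 and -1.41 in unpaired and -0.56, -0.62 and 0.20 in paired flies. Replicate 3 supplied both the lowest and the highest TI-2 value, on opposite sides of 0. The TI-2 level was -0.59 ± 0.17 (SE, n = 6, limma adjusted p = 0.044), which did not pass the threshold of 0.01. Without replicate 3 of both groups the level was -0.58 with adjusted p = 0.00543 and passed it, whereas it was 0.177 without replicate 1, 0.204 without replicate 2 and 0.0873 without unpaired TI-2 replicate 3 alone.

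The lowest naive fragment of Sry-delta, the 589 bp at chr3R:30044169-30044758, repeated this within the gene. It stood at -0.99, -1.27 and -0.82 in naive flies. At TI-2 it stood at -0.92, -0.95 and -2.41 in unpaired and at -1.05, -0.999 and 1.27 in paired flies, and at 4.23 in paired TI-1 replicate 3. Its TI-2 mean of -0.84 did not pass the test (adjusted p = 0.227).

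Bruce is a giant ubiquitin-conjugating enzyme with a BIR repeat that restrains apoptosis. Its body, chr3R:10312039-10331353, holds 54 fragments. The naive values were -0.35, -0.52 and -0.37. The TI-1 values were -0.23, -0.22 and -0.31 in unpaired and -0.31, -0.12 and 1.64 in paired flies, and the TI-2 values -0.40, -0.47 and -0.33 in unpaired and -0.22, -0.45 and -0.0038 in paired flies. All profiles but paired TI-1 replicate 3 were below 0. The TI-2 level of -0.31 ± 0.062 (SE, n = 6) had a limma adjusted p of 0.0156, and of 0.00696 at a level of -0.37 without paired TI-2 replicate 3. Without replicate 1 or 2 the adjusted p was 0.133 or 0.118.

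Inside this depleted gene lay a local maximum. The 522 bp fragment chr3R:10322657-10323179, about the middle of Bruce, was the only one of its 54 fragments above 0.2 in all 3 naive profiles, at 1.17, 0.54 and 1.40, while 24 were below -0.2 in all 3. At TI-2 it measured 2.12, 0.84 and 2.13 in unpaired and 2.53, 1.42 and 2.43 in paired flies, a mean of 1.91 ± 0.25 (SE, n = 6, limma adjusted p = 0.0184). It was also the highest fragment of Bruce in paired TI-1 replicate 3, at 4.03. Elsewhere the gene was mostly low: 7 fragments were below -0.2 in all 6 TI-2 profiles, and 2 of them passed the test, with means of -0.85 and -1.28. Above 0.2 in all 6 TI-2 profiles were 2 fragments of Bruce, both in its middle part, the local maximum among them.

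C3G, a guanine nucleotide exchange factor that activates the small GTPase Rap1, had the highest mean TI-2 level of the 9 genes. Its TI-2 values overlapped those of Bicra. C3G lies at chrX:6780790-6803593 with 73 fragments. Naive values were 0.33, 0.41 and 0.37. The TI-1 values were 0.49, 0.34 and 0.44 in unpaired and 0.47, 0.32 and 1.12 in paired flies, and the TI-2 values 0.27, 0.31 and 0.15 in unpaired and 0.43, 0.34 and 0.87 in paired flies. Every profile was above 0. The TI-2 level of 0.40 ± 0.077 (SE, n = 6) had a limma adjusted p of 0.0148, and without paired TI-2 replicate 3 a level of 0.32 had an adjusted p of 0.00591. Without replicate 1 or 2 the adjusted p was 0.112.

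Occupancy of C3G was divided along the gene. The low-coordinate part had a naive mean of -0.22 ± 0.051 (SD, n = 3), the middle part 0.56 ± 0.11 and the high part 0.81 ± 0.074. Of 28 fragments above 0.2 in all naive profiles, 11 were in the middle and 16 in the high part, and all 15 fragments above 0.2 in all 6 TI-2 profiles were in these parts. The highest naive fragment, chrX:6793936-6794571, read 1.58, 1.46 and 0.56 in unpaired and 1.53, 1.27 and -0.093 in paired flies at TI-2. In paired TI-1 replicate 3 this division was not kept, with 1.58 in the low part, 0.73 in the middle part and 1.03 in the high part, and that fragment stood at -1.54.

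Bicra is the fly member of the GBAF form of SWI/SNF chromatin remodelling complexes. It is the longest of the 9 genes, at chr3R:29063040-29108948, with 97 fragments. Its naive values were 0.26, 0.53 and 0.49. At TI-1 it had 0.43, 0.36 and 0.25 in unpaired and 0.27, 0.30 and 0.83 in paired flies, and at TI-2 0.26, 0.38 and 0.068 in unpaired and 0.14, 0.35 and 0.41 in paired flies. All 15 values were above 0, and the TI-2 level was 0.27 ± 0.057 (SE, n = 6, limma adjusted p = 0.0188). It was 0.24 with adjusted p = 0.0369 without paired TI-2 replicate 3.

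Bicra held the highest naive fragment of all 439. This fragment, chr3R:29063950-29064604 at the low-coordinate end, measured 2.11, 3.07 and 3.04 in naive flies. At TI-2 it measured 2.63, 2.75 and 2.65 in unpaired and 3.03, 3.25 and 2.33 in paired flies, so that it differed little between the TI-2 profiles (mean 2.77 ± 0.13, SE, n = 6, adjusted p = 0.00447). In paired TI-1 replicate 3 it stood at 0.82. A further block in the middle part, chr3R:29083317-29083810, contained 3 fragments with TI-2 means of 2.56 to 3.01, each past the test. In contrast, the high part was at -0.19 ± 0.056 in naive flies (SD, n = 3) and held 16 of the 17 fragments below -0.2 in all naive profiles. Paired TI-1 replicate 3 was at 0.34, 0.38 and 1.76 in the low, middle and high part.

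Nuak, a kinase related to AMPK that acts in muscle autophagy with starvin, had the same kind of division. The gene lies at chr3R:10264306-10308467 and overlaps tRNA:Ser-GCT-2-1 and CG6293. Naive values were 0.065, 0.14 and 0.14, TI-1 values 0.23, 0.14 and 0.096 in unpaired and 0.094, 0.13 and 0.68 in paired flies, and TI-2 values 0.13, 0.19 and 0.074 in unpaired and 0.033, 0.11 and 0.22 in paired flies. Its TI-2 level of 0.13 ± 0.034 (SE, n = 6, limma adjusted p = 0.0383) was below 0.2. This mean joined a naive level of 0.69 ± 0.23 in the low part, -0.0091 ± 0.021 in the middle part and -0.29 ± 0.071 in the high part (SD, n = 3). Fragments above 0.2 in every naive profile numbered 13 of 18 in the low part, and 7 of these 18 were above 0.2 in all 6 TI-2 profiles. The high part of Nuak faces the low part of Bruce, where the naive mean was -0.55, and paired TI-1 replicate 3 read 1.61 and 2.34 in these parts.

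**Figure D2:**
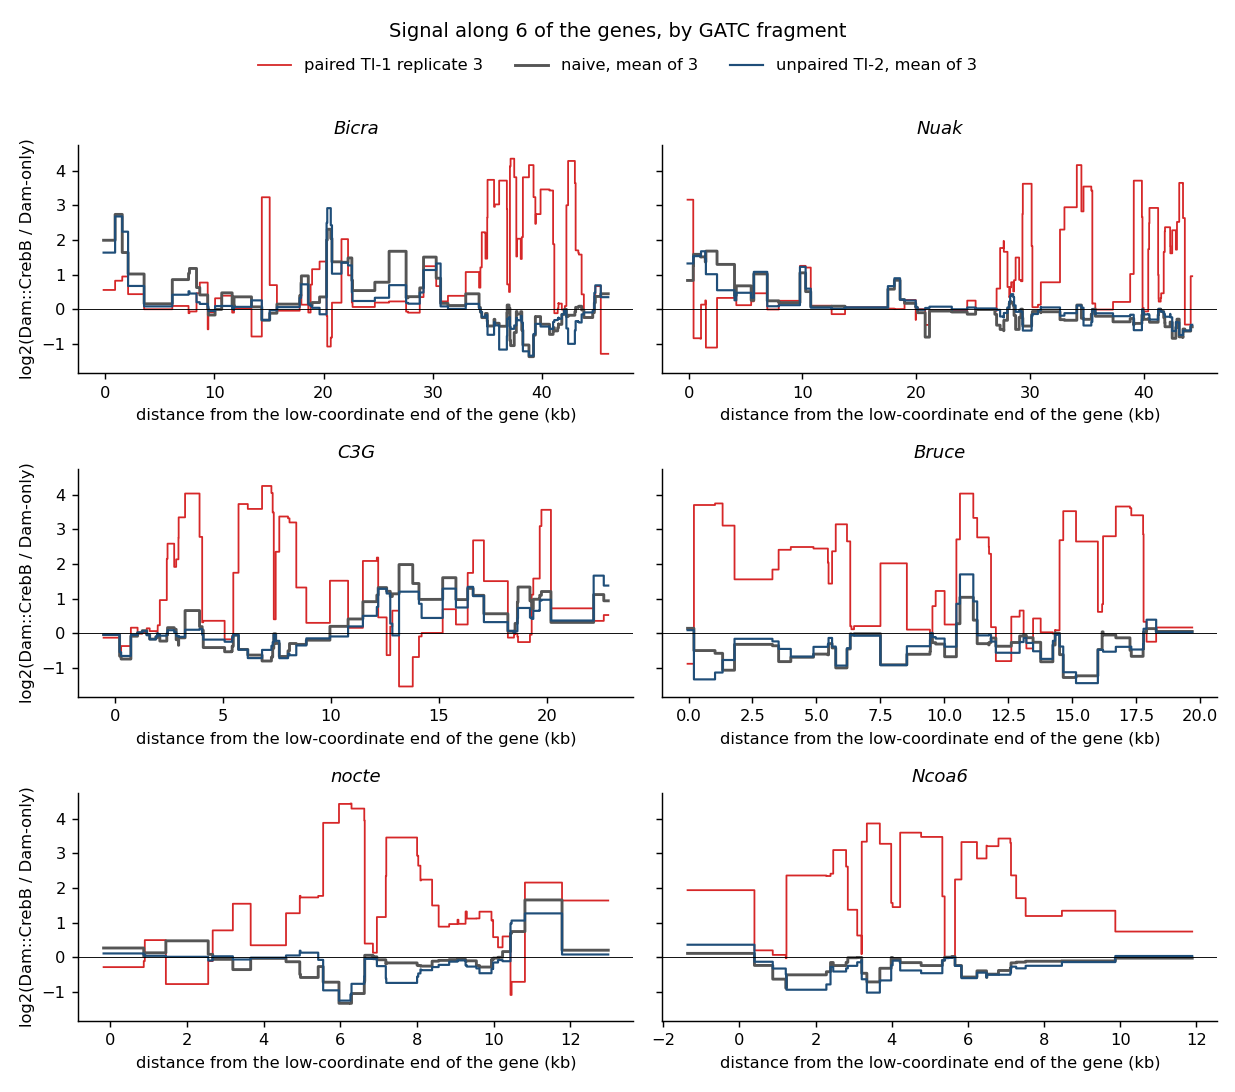
Signal along 6 of the genes: each step is a GATC fragment, the horizontal axis is the distance in kb from the low-coordinate end of the gene, and the vertical axis is the log2 ratio. The naive mean (grey) and the unpaired TI-2 mean (dark blue) follow each other. Paired TI-1 replicate 3 (red) is high in parts where they are below 0, as in the high part of Bicra (1.76 against a naive mean of -0.19). It is also high in places where they are above 0, as at the local maximum of Bruce (4.03 against a naive mean of 1.04).

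No circadian temperature entrainment (nocte) is needed to set the fly clock by temperature cycles. It lies at chrX:10461865-10474675, overlaps Neb-cGP and CG2889, and holds 49 fragments. Naive values were -0.020, 0.11 and 0.12. The TI-1 values were 0.087, -0.025 and 0.095 in unpaired and 0.15, 0.10 and 1.25 in paired flies, and the TI-2 values -0.0033, 0.084 and -0.19 in unpaired and -0.057, 0.093 and 0.66 in paired flies. These values near 0 averaged a depleted middle part, at -0.43 ± 0.13 in naive flies (SD, n = 3), with a high part at 0.44 ± 0.18. All 3 fragments above 0.2 in the naive profiles were in the high part, and the same 3 were above 0.2 in all 6 TI-2 profiles. The highest of them, chrX:10472683-10473651, read 1.05, 2.13 and 1.78 in naive flies and 0.45 to 3.85 at TI-2 (mean 1.62 ± 0.47, SE, n = 6, limma adjusted p = 0.0798). The 3.85 was paired TI-2 replicate 3, without which the mean was 1.15 (adjusted p = 0.0612).

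Ncoa6, a nuclear receptor coactivator found with the Trr histone methyltransferase, lies at chr2L:5315290-5326683 with 38 fragments. Naive values were -0.16, -0.24 and -0.17. At TI-1 they were -0.14, -0.081 and 0.067 in unpaired and -0.011, -0.041 and 1.88 in paired flies, and at TI-2 -0.19, -0.17 and -0.37 in unpaired and -0.14, -0.14 and 0.70 in paired flies. Without the paired replicates 3, the 13 other profiles stayed between -0.37 and 0.067. None of its fragments was above 0.2 in all naive profiles and 15 were below -0.2 in all. The 10 kb beyond its low-coordinate end, where CG14024 is the nearest gene, was at 0.57 ± 0.14 in naive flies (SD, n = 3) and between 0.29 and 0.84 at TI-2, higher than any part of Ncoa6 itself in the naive mean.

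Vimar, an armadillo repeat protein that acts with Miro in mitochondrial dynamics, lies at chr2R:6975285-6985712 with 21 fragments and overlaps CG30156 and 2 long noncoding RNAs. Naive values were -0.060, -0.13 and -0.088. At TI-1 they were -0.10, -0.039 and -0.071 in unpaired and -0.094, -0.029 and 1.02 in paired flies, and at TI-2 -0.090, -0.089 and -0.21 in unpaired and -0.12, -0.080 and 0.20 in paired flies. Only the paired replicates 3 were above 0. The strongest signal near vimar was outside it: the 10 kb beyond its high-coordinate end, starting with CG17002, was at 0.97 ± 0.18 in naive flies (SD, n = 3), 0.99 ± 0.011 in unpaired TI-2 and 1.41 ± 0.41 in paired TI-2 flies, where replicate 3 was at 1.86. Within the gene no fragment was above 0.2 in all naive profiles. Its TI-2 level of -0.064 ± 0.052 (SE, n = 6, limma adjusted p = 0.363), like those of nocte (0.098 ± 0.10, adjusted p = 0.484) and Ncoa6 (-0.053 ± 0.13, adjusted p = 0.768), did not pass the test. Without paired TI-2 replicate 3 the levels were -0.11 for vimar (adjusted p = 0.0429), -0.0088 for nocte (0.909) and -0.19 for Ncoa6 (0.0222).

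At an adjusted p under 0.05 in place of 0.01, the TI-2 level was called below -0.2 for 3 of the 9 genes (Bruce, slp1 and Sry-delta) and above 0.2 for 2 (C3G and Bicra). That rule called 8.54% of all genes below and 21.8% above. All 5 calls at 0.05 were lost without replicate 1 or without replicate 2 (adjusted p from 0.0693 to 0.204), and that of Sry-delta also without unpaired TI-2 replicate 3. In slp1, the call at 0.01 was lost when any replicate number was left out, with adjusted p from 0.0137 to 0.0831.

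Over the 439 fragments, 113 were below -0.2 in all naive profiles, or 25.7% against 9.06% of all fragments, and 76 were above 0.2, or 17.3% against 13.4%. At TI-2, 41 fragments were above 0.2 in all 6 profiles, which is 9.34% against 7.23%, and 14 were below -0.2, which is 3.19% against 1.11%. All 439 had a TI-2 value other than 0, but only 338403 of the 383653 fragments of the genome did. Fragments at 0 in all TI-2 profiles cannot pass either bound, which lowers the TI-2 shares over all fragments. Of the 41, 40 had been above 0.2 in all naive profiles, or 97.6% against 89.4% over all fragments. Of the 14, 12 had been below -0.2, where over all fragments 3937 of 4276 had been. No fragment of the 9 genes was above in all naive profiles and below in all TI-2 profiles, or the reverse. Such reversals were as rare over all 383653 fragments, at 0 and 3. The test of the TI-2 level called 12 fragments above 0 (6 in Bicra, 3 in C3G, 3 in Nuak), or 2.73% of those tested against 1.47% of all fragments, and 5 below 0, or 1.14% against 0.236% (2 in Bruce and 1 each in slp1, Bicra and Nuak). Neighbouring fragments share reads and are not independent. Without paired TI-2 replicate 3 the test called 2 fragments of the 9 genes, and without unpaired TI-2 replicate 3 it called 0 (lowest adjusted p over all fragments 0.0148).

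The shape along each gene was held across most profiles. Over the fragments of a gene, the naive mean correlated with each of 10 trained profiles (the paired replicates 3 left out) at r between 0.24 and 0.98, except slp1 in paired TI-1 replicate 2, where r was -0.27 over its 7 fragments. With paired TI-1 replicate 3 r was negative in all 9 genes, from -0.97 in slp1 to -0.25 in Ncoa6. That profile entered the choice of the genes, and the share of all genes with a negative r was not computed. Over all fragments of the genome its r with the naive profiles was between -0.063 and 0.00026. With paired TI-2 replicate 3 the r within the 9 genes was between -0.18 and 0.45. These are descriptions over fragments that adjoin each other in the same libraries.

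**Figure D3:**
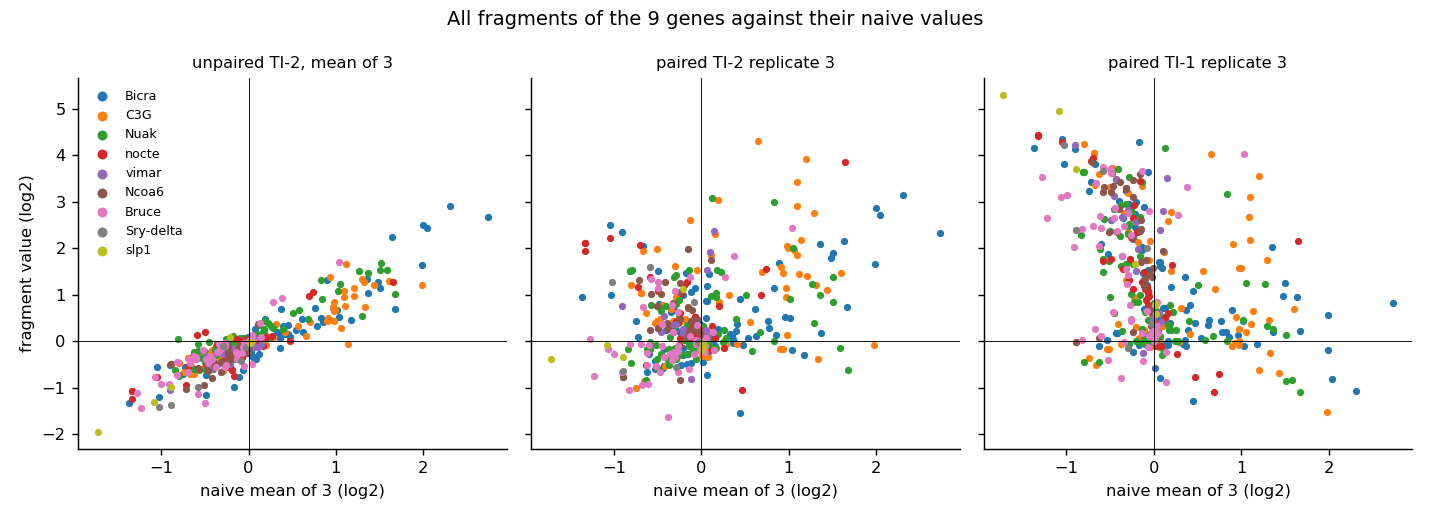
The 439 fragments of the 9 genes, coloured by gene: naive mean on the horizontal axis against the unpaired TI-2 mean, paired TI-2 replicate 3 and paired TI-1 replicate 3 on the vertical axes (log2 ratio). In the right panel, the fragments below -0.2 in all naive profiles average 2.44 and those above 0.2 average 0.58.

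At TI-1 the paired minus unpaired difference was highest in pair 3 for each of the 9 genes. In slp1 it was 0.077, 0.76 and 3.38 in the 3 pairs, in Sry-delta 0.39, 0.20 and 2.36, and in Bruce -0.081, 0.096 and 1.95. In C3G, Bicra and Nuak the differences of pairs 1 and 2 were below 0, between -0.16 and -0.016, and pair 3 gave 0.69, 0.58 and 0.58. All 9 genes were above 0 in pair 3, as were 82.8% of all genes, and the median over the 9 was 1.16 against 0.47 over all genes. Over pairs 1 and 2 alone, the median of the 9 was 0.0095, against -0.045 for all genes. All 3 pairs were above 0 in 5 of the 9 genes and in 10.3% of all genes. The genes were chosen on this contrast, and no conclusion is drawn from these values.

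The TI-1 differences tended to be larger where the naive level was lower, in each of the 3 pairs. Over the 9 genes the naive mean and the difference correlated at r = -0.63, -0.75 and -0.94 in pairs 1, 2 and 3. Over all genes r was -0.32, -0.66 and -0.35. With the TI-2 differences r was -0.53, -0.30 and -0.49 over the 9 genes, and -0.047, 0.0097 and 0.29 over all genes. The choice of the 9 genes used the TI-1 contrast and naive enrichment, so their r is not free of that choice. The points also share the same libraries, and this is a description with no test. Within the genes, the fragments below -0.2 in all naive profiles averaged 2.44 in paired TI-1 replicate 3 and those above 0.2 averaged 0.58. Over all fragments of the genome the same averages were 1.01 and 0.70.

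At TI-2 no difference between paired and unpaired flies passed the test. The largest mean was that of Sry-delta, 0.52 ± 0.43 (SE, 3 pairs, limma adjusted p = 0.891), from pair differences of -0.011, -0.041 and 1.61. In Ncoa6 the pairs gave 0.050, 0.025 and 1.06, in nocte -0.054, 0.0088 and 0.85, and in vimar -0.030, 0.0087 and 0.41. For these genes pairs 1 and 2 stayed within 0.054 of 0, and pair 3 made the mean.

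In slp1 and Bruce all 3 pairs were above 0, with 0.26, 0.065 and 0.82 in slp1 (mean 0.38 ± 0.19, SE, adjusted p = 0.891), and with 0.17, 0.019 and 0.32 in Bruce (mean 0.17 ± 0.089, SE, adjusted p = 0.891). C3G gave 0.16, 0.032 and 0.72 (mean 0.30 ± 0.18, SE). Bicra, at -0.12, -0.028 and 0.34, and Nuak, at -0.093, -0.081 and 0.15, had means of 0.063 and -0.0094. Among all genes limma called 0 of 17480, or 0%, and at an unadjusted p under 0.05 and a size above 0.2 the genes numbered 51 higher and 49 lower, with 0 of the 9 among them. With 3 pairs an exact sign permutation cannot go below p = 0.25. Differences of this size were not called with this spread between pairs, and the absence of a call does not show the absence of a difference.

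**Figure D4:**
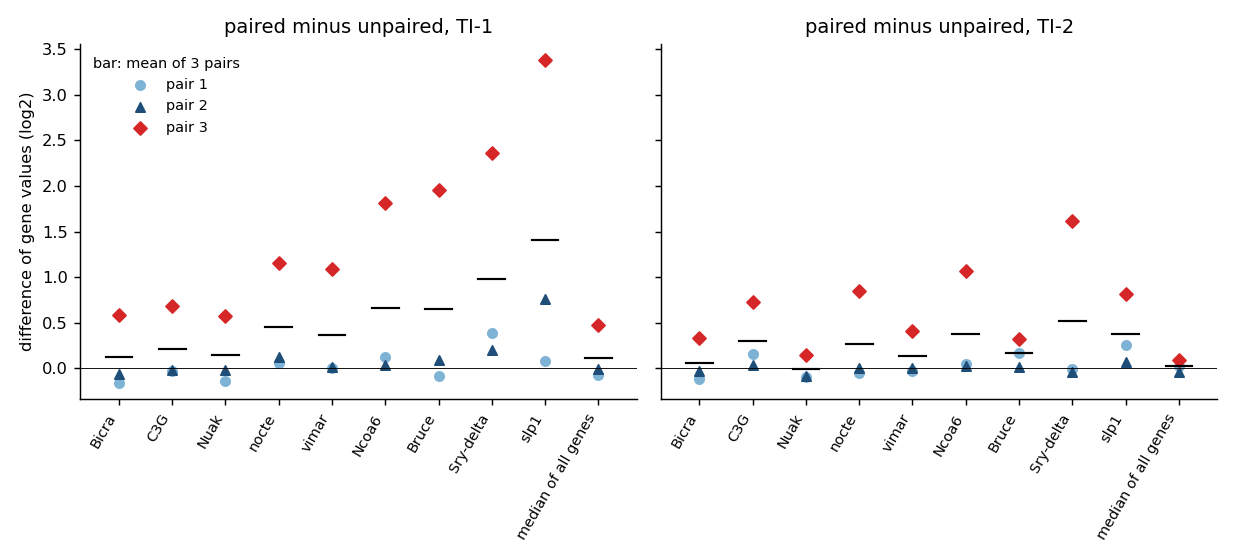
Paired minus unpaired differences of gene values (log2, vertical axis) of each pair at TI-1 and TI-2 for the 9 genes and the median of all genes, bars being the mean of 3 pairs. Pair 3 is the highest pair in every gene at both intervals, from 0.15 to 1.61 at TI-2.

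Replicate 3 stood apart from the other TI-2 pairs. All 9 genes were above 0 in pair 3, against 60.2% of all genes, whereas pair 1 was above 0 in 4 and pair 2 in 6, against 60.1% and 32.1%. All 3 pairs were above 0 in 4 of the 9 genes (Bruce, Ncoa6, slp1 and C3G), against 8.59% of all genes. The paired profiles lay wholly above the unpaired ones in 2 (Ncoa6 and C3G), against 3.22%. Paired TI-2 replicate 3 was the highest of the 6 profiles in all 9 genes (44.3% of all genes), and unpaired TI-2 replicate 3 the lowest in 7 (31.0% of all genes). Paired TI-2 replicate 3 is also the profile with the highest correlation with paired TI-1 replicate 3, a profile that entered the choice of the genes. Its part in the TI-2 differences was not tested.

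At the level of fragments no TI-2 difference was called in any of the 9 genes or elsewhere (limma, 0 of 338403). At an unadjusted p under 0.05 and a size above 0.2, 9 of the 439 fragments were higher and 3 lower in paired flies, against 0.684% and 0.49% of all fragments tested, and 6 of the 9 were in Bruce. They include its local maximum, chr3R:10322657-10323179, with a difference of 0.42 ± 0.073 (SE, 3 pairs, adjusted p = 0.964).

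For each member the gene with the most similar values over the 15 profiles was found by Pearson's r. These were pzg for Ncoa6 (r = 0.997), Gnf1 for vimar (r = 0.996), CG11034 for Bruce (r = 0.995), GCC88 for Sry-delta (r = 0.994), frtz for nocte (r = 0.990), CG31496 for slp1 (r = 0.990), CG12071 for C3G (r = 0.989), Fs(2)Ket for Nuak (r = 0.985) and Mvk for Bicra (r = 0.977). The 15 points share libraries with each other, and r is given as a description. Without the paired replicates 3, these r values over 13 profiles were 0.84 to 0.96. Among the members themselves the 36 pairs had a median r of 0.91 over 15 profiles and of 0.38 over 13.

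The partners of each member in its pathway were read from 9 lists of 12 genes, in which 106 of 108 entries matched a gene, each counted once. At TI-2, 20 of the 106 were called above 0 and 2 below, where 10.5% and 3.07% of all genes were called, and no difference between paired and unpaired flies was called. Around Bruce, 3 of 12 apoptosis genes were above 0, led by Diap1, an inhibitor of caspases, at 0.88 ± 0.073 (SE, n = 6, limma adjusted p = 0.00248), against -0.31 in Bruce itself. Around nocte, 5 of 12 clock genes were above 0, with vri, a clock repressor of the bZIP family, at 0.82 ± 0.048 (adjusted p = 0.00177). Around Nuak 4 of 12 and around C3G 3 of 12 were above 0, the latter led by the small GTPase gene Ras85D at 0.51 ± 0.073 (adjusted p = 0.00695) and with 1 gene below 0.

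In the Trr complex list of Ncoa6, 2 of 12 were called above 0, with the ecdysone receptor gene EcR at 0.41 ± 0.034 (adjusted p = 0.00252). The mitochondrial list of vimar had 2 of 12, with the small GTPase gene Rho1 at 0.68 ± 0.080 (adjusted p = 0.00461), and the chromatin remodelling list of Bicra 1 of 12 above and 1 below. No gene was called in the forkhead list of slp1 or in the zinc finger list of Sry-delta, whose median TI-2 level was -0.060, against 0.036 over all genes. The median TI-2 difference was highest in that zinc finger list, at 0.24, led by dwg, which encodes an insulator-binding zinc finger protein, at 0.71 ± 0.47 (SE, 3 pairs, adjusted p = 0.891) with paired TI-2 replicate 3 at 1.46, against 0.27 for the 9 members and 0.022 over all genes.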

How the data were processed

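The authors made each profile with the damid pipeline from 1 read of each pair, mapped to release 6 of the fly genome. The pipeline extended the reads, took binned counts, scaled them and added pseudocounts, and the deposited value of each GATC fragment is a log2 ratio with Dam::CrebB in the numerator and Dam-only in the denominator. Pseudocounts and normalization shrink ratios of thinly covered fragments, and 12.4% to 21.6% of the values of a profile were exactly 0. The deposited transcript lists hold the ratios and FDR values of the authors' own comparisons and were not used. Gene positions came from a RefSeq table of release 6, without strand or exons, so ends are given as low and high coordinates. Fragments were placed in the low, middle or high part of a gene by their midpoint. TI-2 levels (mean of both groups against 0) and paired minus unpaired differences within replicate numbers were fitted over all 17480 genes, and over the 338403 fragments with a TI-2 value other than 0, in R 4.3.3 by the moderated two-sided test of limma 3.58.1, with Benjamini-Hochberg adjustment over all. A call needed an adjusted p under 0.01 and a size above 0.2, the cut-offs of the study. The study describes the replicates as biological. The p-values of levels measure the spread within both TI-2 groups of 3 replicates, and those of differences the spread between 3 pairs. Read depth per profile is unknown. The fits were tested on simulated data. Python 3.11.15, numpy 2.4.6 and pandas 2.3.3 were used for all other values. All 9 members are named. The gene lists and members were chosen with earlier results of these data known. Of each list, the genes of highest TI-2 level or largest TI-2 difference are named, and the gene most like a member is that of highest r with at least 5 fragments and no overlap. Alternatives changed the averaging, the zeros, the scaling, the replicates, the replicate block, the fragment minimum, the prior and the threshold.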

Additional observations from a re-analysis of the deposited data

How the results depend on the processing

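The TI-2 calls of levels depended on the threshold, the scaling and the replicates, and the calls of differences did not, being 0 throughout. The 2379 genes called for their TI-2 level became 5300 at an adjusted p under 0.05 and 4628 after quantile normalization, and 0 to 2500 with a replicate or a single library left out (0 without replicate 1 or 2, 563 without unpaired TI-2 replicate 3). The 5779 fragments became 43842, 16532 and 0 to 102, and the 1 member called became 5, 3 and 0 to 3, with 0 for an unweighted mean over fragments. The members' median naive level of -0.094 was -0.18 unweighted and -0.041 after quantile normalization. Their median TI-1 difference of 0.45 ranged from 0.0095 to 0.64 with a replicate left out. The 40 fragments above 0.2 in naive and TI-2 profiles became 43 to 58 with a replicate or a single library left out. That count asks for every profile and cannot fall when profiles are left out, so its rise says nothing about stability. Some values changed sign: the naive level of nocte (-0.14 unweighted), the TI-1 differences of C3G, Bicra and Nuak without replicate 3 (-0.023, -0.11 and -0.074; Bicra -0.030 after quantile normalization), the TI-2 level of Ncoa6 (-0.19 to 0.0033 with a library left out) and of nocte (-0.019 unweighted, -0.0088 to 0.16 left out), and the TI-2 differences, with a replicate left out, of nocte (-0.023 to 0.43), Sry-delta (-0.026 to 0.80), vimar (-0.011 to 0.21), Bicra (-0.074 to 0.16, and -0.072 after quantile normalization) and Nuak (-0.087 to 0.032, and 0.055 unweighted). The cause was not tested. Of 333 alternative values of 36 member results, 297 kept their call or, with no test, moved by less than the spread between replicates. This count says little about stability. Replicate 3 widened the TI-1 spread: Bruce is among the 297 (SD 1.13) although its TI-1 difference fell from 0.66 to 0.0072 without replicate 3. The TI-1 sign changes of C3G, Bicra and Nuak are among them too. The TI-2 differences had no call to lose, and centring each profile on its median left the members' TI-2 levels unchanged. Equal replicate numbers did not deviate together at TI-2 (r of deviations -0.12, -0.087 and -0.25). Whether they share more than a number was not tested. Without the replicate block 0 differences were called, as with it (lowest adjusted p 0.836). Leaving out single TI-2 libraries was chosen after seeing the data. Depth is unknown, which limits every ratio of short fragments.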
